A study of Mus musculus with 8 samples.

Results

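The 40 collagen genes examined here were given by name, and 11 of them code for fibrillar collagens and 29 for other collagens. For each gene the locus was taken as the mm10 GENCODE gene body plus 20 kb on each side, and each peak that overlapped this window by at least 1 bp was counted. The gene annotation holds 21938 protein-coding genes on the standard chromosomes, which served as the background. CUT&Tag, in which an antibody guides a transposase to its target so that the DNA nearby is cut and tagged for sequencing, was applied to mouse embryonic fibroblasts (MEFs) on day 5 of reprogramming. The cells had received Oct4 by retrovirus together with either wild-type Nanog (labelled Nanog+Oct4, NanogWT here) or a fusion of Nanog with the N-terminal domain of SS18 that binds BRG1 (labelled NanogN70+Oct4, NanogBiD here), and all of them carried an Oct4-GFP reporter allele per the study's methods. In each of the 2 arms 4 targets were profiled, namely the FLAG tag on NANOG, BRG1 (SMARCA4, an ATPase that drives BAF complexes to remodel chromatin), H3K27ac and H3K4me1, which gave 8 peak lists. The antibody label of the last target reads H3K4me, whereas its title reads H3K4me1.

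Replicates had been merged before peaks were called, so each arm had 1 library per target and no test between arms was possible. Peak numbers ranged from 30859 to 74782 per list, with unknown sequencing depth. The NanogBiD list was 1.27 times as long as that of NanogWT for FLAG, 1.74 times for BRG1, 1.2 times for H3K27ac and 0.791 times for H3K4me1. All intervals below are 95% intervals that cover counting error only, not the variation between cultures. Of 10 fibroblast marker genes, 9 had an H3K27ac peak within 2 kb of a start site in both arms, with Prrx1 as the exception. Over all protein-coding genes the share with such a peak was 57% in NanogWT and 59.9% in NanogBiD. For epithelial markers the numbers were 0 of 6 in NanogWT and 1 of 6 in NanogBiD, for endothelial markers 1 and 3 of 5, for blood cell markers 2 and 3 of 5 and for cartilage markers 2 and 2 of 5, and the part of such cells in the results was not tested. The lists come from whole cultures, in which fewer cells with a mark and less of the mark per cell cannot be told apart.

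Collagens are trimeric proteins with a triple-helical domain, built from chains that each have a gene of their own. Fibrillar collagens assemble into the fibrils that give connective tissue its tensile strength, and fibroblasts are a main source of types I, III and V. The other collagens form the networks of basement membranes, microfibrils and anchoring fibrils, decorate the surface of fibrils, or span the cell membrane. NANOG is a homeobox transcription factor of pluripotent cells, H3K27ac marks active promoters and enhancers, and H3K4me1 marks enhancers whether active or only primed.

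Collagen loci followed the direction of the whole lists for each target. FLAG peaks numbered 228 in NanogWT and 262 in NanogBiD, or 1.15 times as many (0.959 to 1.38). BRG1 peaks numbered 114 and 177, a ratio of 1.55 (1.22 to 1.98). H3K27ac peaks numbered 122 and 131, a ratio of 1.07 (0.833 to 1.39). H3K4me1 peaks, in contrast, numbered 290 and 209, a ratio of 0.721 (0.60 to 0.864). These are loci with more BRG1 peaks and fewer H3K4me1 peaks in the fusion arm, whereas the intervals for FLAG and H3K27ac both include equal numbers. With 50 kb on each side the FLAG ratio was 1.18 (1.005 to 1.38), an interval that just excludes equal numbers. For all 4 targets the collagen ratio lay below that of the whole lists, which lay inside the collagen interval. With a score of at least 100 this order turned for BRG1, at 2.35 against 1.88, and for H3K27ac, at 1.21 against 1.14, and with summits of at least 15 tags for BRG1, at 1.81 against 1.75. When each list was limited to its 20000 peaks of highest score, where the ratio of whole lists is 1 by construction, the collagen ratio of FLAG was 0.857, that of BRG1 0.933, that of H3K27ac 0.979 and that of H3K4me1 0.889, so the sizes and, for FLAG, BRG1 and H3K27ac, the direction depend on how many peaks of each list are counted.

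With all peaks counted, the ratios of fibrillar and other collagens stood furthest apart for BRG1. At the 11 fibrillar loci 38 BRG1 peaks were found in NanogWT and 45 in NanogBiD, which makes a ratio of 1.18 (0.752 to 1.87). At the 29 other loci 76 and 132 were found, a ratio of 1.74 (1.30 to 2.33). These intervals overlap, and the difference between the gene groups was not tested. Within the 20000 peaks of highest score the ratios were 0.70 and 1.05, and with a score of at least 100 they were 2.56 and 2.29, which turns the order of the gene groups. In NanogWT the density of BRG1 peaks was 25.8 per Mb at fibrillar loci and 15.7 per Mb at the others, whereas in NanogBiD it was 30.6 and 27.3 per Mb. For FLAG the ratio was 1.26 (0.869 to 1.85) at fibrillar loci, from 53 and 67 peaks, and 1.11 (0.904 to 1.37) at the others, from 175 and 195, and with a score of at least 100 these ratios were 0.917 and 1.22, also in the opposite order. H3K27ac gave ratios of 1.05 and 1.08, and H3K4me1 of 0.707 and 0.726, which are close to each other. With summits of at least 15 tags, however, H3K4me1 gave 0.784 (0.465 to 1.31) and 0.463 (0.332 to 0.639), and H3K27ac gave 0.769 (0.407 to 1.43) and 1.32 (0.847 to 2.09), with overlapping intervals.

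Counted gene by gene, 26 of the 40 collagens had more FLAG peaks in NanogBiD and 7 had fewer, against 50.2% and 17.6% of the protein-coding genes with a FLAG peak. For BRG1, 25 of 38 collagens with a peak had more and 7 had fewer, against 53.2% and 12.7%. For H3K27ac, 15 of 37 had more and 10 had fewer, against 37.4% and 17.4%. For H3K4me1, 6 of 38 had more and 27 had fewer, against 19.7% and 51.6%. The more frequent direction of each target was therefore that of the genome, although for H3K27ac genes with equal numbers were nearly as many as those with more, 12 against 15. Collagen genes are long, with a median of 114 kb against 17.4 kb over all protein-coding genes, and a longer window holds more peaks and leaves fewer ties.

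**Figure D1:**
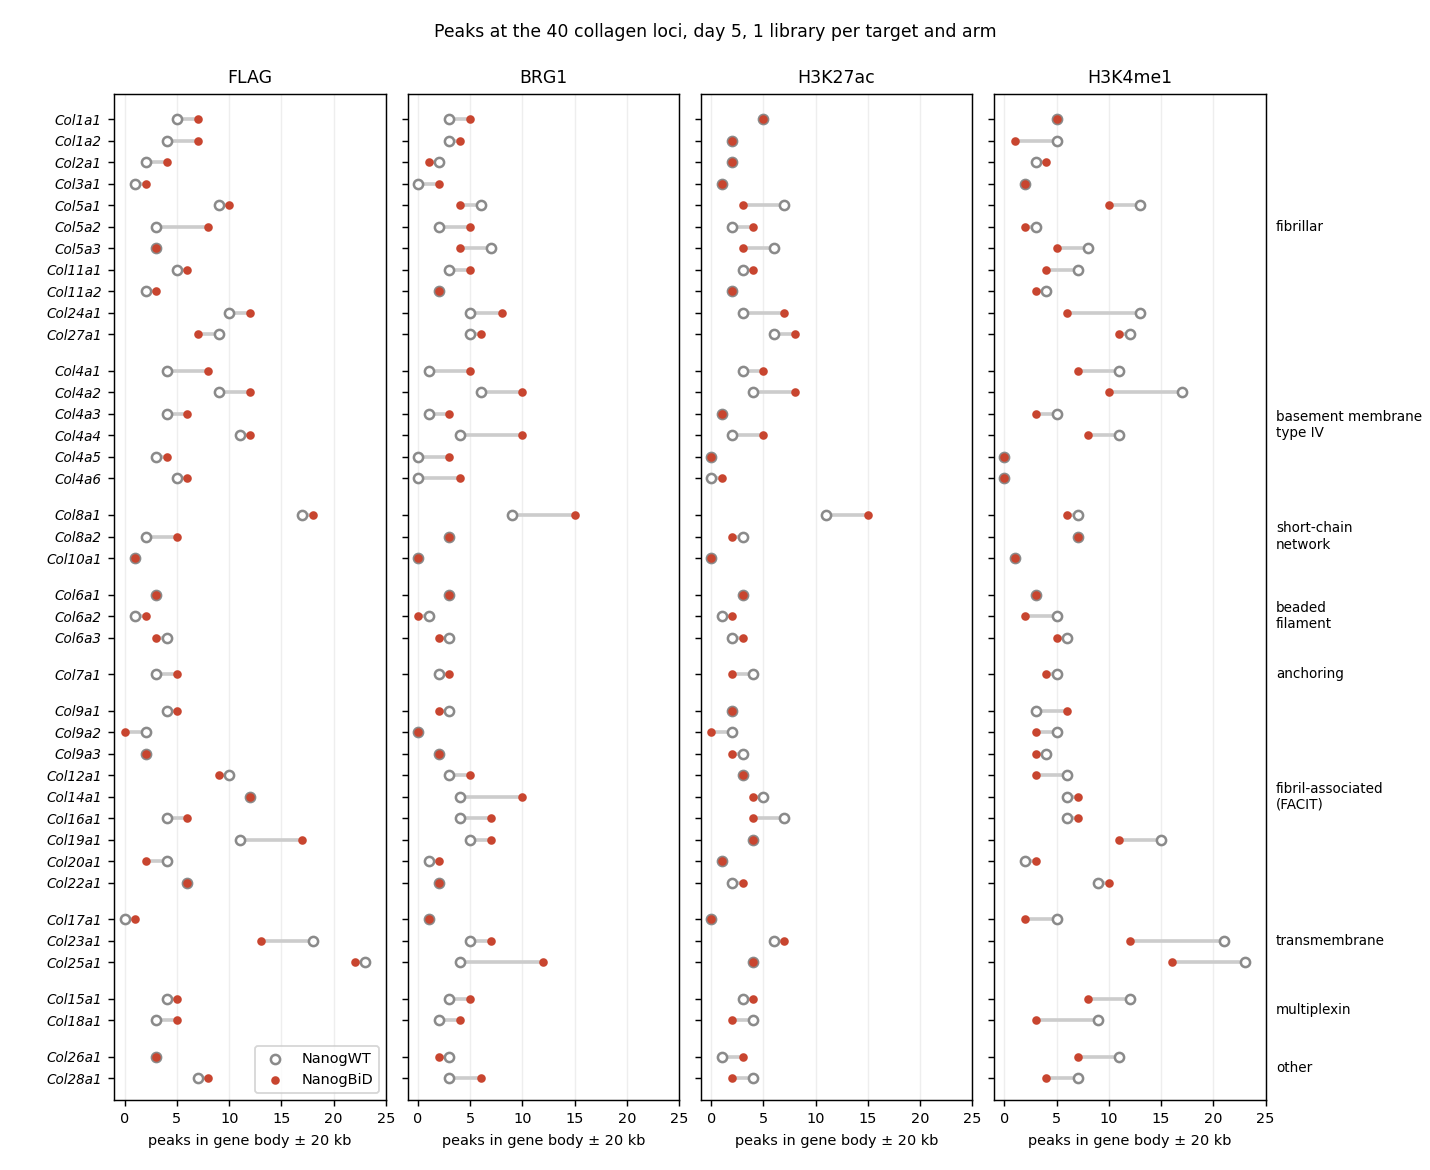
Number of peaks in the gene body and 20 kb on each side (horizontal axis) for each of the 40 collagen genes (rows, grouped by collagen type), with NanogWT as open grey circles, NanogBiD as red points and a line joining them; 1 library per point, so no error can be drawn. The BRG1 panel shows the 6 type IV genes with red to the right of grey, and the H3K4me1 panel shows red to the left for 27 genes.

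The genes of type I collagen, the main fibril of skin, bone and tendon, were occupied in both arms. At Col1a1 (chr11:94936224-94953042, plus strand) 5 FLAG peaks were found in NanogWT and 7 in NanogBiD, 3 and 5 BRG1 peaks, 5 and 5 peaks of H3K27ac, and 5 and 5 of H3K4me1. The region over its start site had a peak in all 8 lists, with FLAG summits of 21 and 19 tags, BRG1 summits of 22 and 14 tags, H3K27ac summits of 20 and 24 tags and H3K4me1 summits of 20 and 17 tags, in NanogWT and NanogBiD respectively. Its promoter thus carried BRG1 at a lower summit in the fusion arm, while regions upstream, at -6.35 and -13.4 kb from the start site, also had peaks in all 8 lists. A region downstream of the gene (chr11:94957354-94959137) went the other way, with FLAG summits of 12 and 29 tags, a BRG1 peak of 16 tags in NanogBiD alone, and H3K27ac summits of 13 and 24 tags. Regions other than start sites and the 6 that a rule picked, introduced below, were chosen as examples after their values were seen.

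Col1a2 (chr6:4504814-4541544, plus strand), which codes for the partner chain of type I collagen, showed a different set of values. It had 4 and 7 FLAG peaks, 3 and 4 BRG1 peaks, 2 and 2 peaks of H3K27ac, and 5 and 1 of H3K4me1. Over its start site the H3K4me1 peak of 18 tags was found in NanogWT alone, beside H3K27ac summits of 18 and 19 tags, FLAG summits of 18 and 12 tags and BRG1 summits of 16 and 10 tags. A region next to it, further into the gene (chr6:4506767-4508142), had FLAG summits of 15 and 16 tags and a BRG1 peak of 10 tags in NanogBiD alone. The H3K4me1 peak that both arms had lay upstream at -14.3 kb, in a region with a peak in all 8 lists. From 16 kb past the start site into the 3′ flank, the FLAG peaks of NanogWT and NanogBiD did not coincide. There 1 was found in NanogWT alone and 4 in NanogBiD alone, at summits between 11 and 20 tags. Only 1 of those 4 had a BRG1 peak.

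Col3a1 (chr1:45311538-45349706, plus strand), the gene of type III collagen that accompanies type I in elastic tissues, had few peaks, with 1 and 2 FLAG peaks, 0 and 2 BRG1 peaks, 1 and 1 peaks of H3K27ac, and 2 and 2 of H3K4me1. Over its start site a BRG1 peak of 12 tags was found in NanogBiD alone, H3K27ac stood at 11 tags in both arms, and no FLAG or H3K4me1 peak was called. It was the fibrillar collagen whose promoter had BRG1 in NanogBiD alone. The 100 bases before this start site (chr1:45311438-45311537, plus strand, RefSeq sequence of GRCm38, the assembly called mm10) are shown because the BRG1 peak covers them:
Col3a1 promoter: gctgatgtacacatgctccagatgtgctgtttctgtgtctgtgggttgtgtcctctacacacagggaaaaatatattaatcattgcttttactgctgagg
On either strand they hold no match to CCAAT, a box bound by the factor CBF, which 20.5% of 20150 RefSeq promoters hold in the 100 bases before their RefSeq start site. Of the 31 collagen genes with such a sequence, 3 held the box (9.68%). Col1a1 had no such sequence. The RefSeq start site of Col1a2 lay 804 bp from its GENCODE start, and the 100 bases before it are untranslated region, so they are not shown.

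Type V collagen is incorporated into type I fibrils and limits their diameter, and its genes had values that pointed in different directions. Col5a1 had 9 and 10 FLAG peaks, 6 and 4 BRG1 peaks, 7 and 3 peaks of H3K27ac, and 13 and 10 of H3K4me1. Col5a3 had 3 and 3 FLAG peaks, 7 and 4 BRG1 peaks, 6 and 3 peaks of H3K27ac, and 8 and 5 of H3K4me1. Col5a2 had 3 and 8 FLAG peaks, 2 and 5 BRG1 peaks, 2 and 4 peaks of H3K27ac, and 3 and 2 of H3K4me1. Col5a1 and Col5a3 were thus among the 7 collagens with fewer BRG1 peaks in the fusion arm, and Col5a2 was among the 25 with more. In the Col5a1 body, a region 82.1 kb from the start site kept BRG1 summits of 18 and 18 tags while its H3K27ac peak of 22 tags was found in NanogWT alone. In the Col5a3 body, a region 23.2 kb from the start site had FLAG summits of 28 and 11 tags, BRG1 summits of 20 and 11 tags, and H3K27ac and H3K4me1 peaks of 15 and 20 tags in NanogWT alone.

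Around the start site of Col5a2 the peaks of the arms lay side by side rather than on top of each other. FLAG and BRG1 peaks of 14 and 10 tags covered the start site in NanogWT alone, and FLAG and BRG1 peaks of 26 and 11 tags lay in a region that began 0.5 kb upstream, in NanogBiD alone. H3K27ac covered the start site in both arms, at 21 and 16 tags. As a short gap separates the FLAG peaks, they count as a NanogWT-only and a NanogBiD-only region here and as a shared region where peaks are merged across gaps of up to 500 bp.

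The cartilage collagens Col2a1, Col11a1 and Col11a2, which form the thin fibrils of cartilage, are not genes that fibroblasts are known for, and part of the peaks in their windows lay at start sites of neighbouring genes. Col2a1 had 2 and 4 FLAG peaks, 2 and 1 BRG1 peaks, 2 and 2 peaks of H3K27ac, and 3 and 4 of H3K4me1, and it was the fibrillar gene with more H3K4me1 peaks in NanogBiD. The 1 BRG1 peak of its window in NanogBiD lay at the start site of Tmem106c. Over its start site H3K4me1 stood at 18 and 19 tags. Col11a1 had 5 and 6 FLAG peaks, 3 and 5 BRG1 peaks, 3 and 4 peaks of H3K27ac, and 7 and 4 of H3K4me1, and its start site had a peak in all 8 lists. Downstream of Col11a1, 195 kb from its start site, a region had FLAG, BRG1 and H3K27ac summits of 30, 12 and 12 tags in NanogBiD and no peak of any target in NanogWT. Col11a2 had 2 and 3 FLAG peaks, 2 and 2 BRG1 peaks, 2 and 2 peaks of H3K27ac, and 4 and 3 of H3K4me1, and all of its BRG1 and H3K27ac peaks lay at the start sites of Ring1, H2-Ke6 and Rxrb.

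Col24a1 and Col27a1 code for fibrillar collagens of developing bone and cartilage that form no classical fibrils by themselves. Col24a1 had 10 and 12 FLAG peaks, 5 and 8 BRG1 peaks, 3 and 7 peaks of H3K27ac, and 13 and 6 of H3K4me1, the widest difference in H3K4me1 among the fibrillar genes. Its H3K27ac peak at the start site, of 9 tags, was found in NanogBiD alone. Its highest FLAG summit, 169 kb into the gene, was 43 tags in NanogWT and 23 in NanogBiD, so the larger number of peaks did not go with a higher top summit. Col27a1 had 9 and 7 FLAG peaks, 5 and 6 BRG1 peaks, 6 and 8 peaks of H3K27ac, and 12 and 11 of H3K4me1, and it was the fibrillar gene with fewer FLAG peaks in NanogBiD. Its strongest region, 101 kb into the gene, had FLAG summits of 28 and 49 tags, BRG1 summits of 40 and 43 tags and H3K27ac summits of 39 and 42 tags.

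At promoters, taken as 2 kb either side of any annotated start site of the gene, the fibrillar genes were alike in FLAG between arms and differed in H3K4me1. FLAG peaks were present at the promoters of the same 6 of 11 fibrillar genes in both arms. BRG1 was present at 7 and 8, with Col3a1 in NanogBiD alone, and H3K27ac at 9 and 10, with Col24a1 in NanogBiD alone. H3K4me1 was present at 11 fibrillar promoters in NanogWT and at 8 in NanogBiD, and Col1a2, Col3a1 and Col11a2 made the difference. Over all protein-coding genes FLAG was present at 55.2% and 56.8% of promoters in NanogWT and NanogBiD, BRG1 at 53.9% and 55.5%, H3K27ac at 57% and 59.9%, and H3K4me1 at 63.3% and 62%. H3K4me1 in NanogWT alone was found at 5.49% of them. At Col3a1 the H3K4me1 call turned on the 2 kb limit, with the NanogWT peak of 11 tags at -1.99 kb and a NanogBiD peak of 16 tags at 2.16 kb. Among the 29 other collagens, BRG1 was present at 9 and 12 promoters, with Col6a2, Col14a1 and Col23a1 in NanogWT alone and Col4a5, Col4a6, Col7a1, Col12a1, Col15a1 and Col20a1 in NanogBiD alone, against 3.6% and 5.15% of protein-coding genes.

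**Figure D2:**
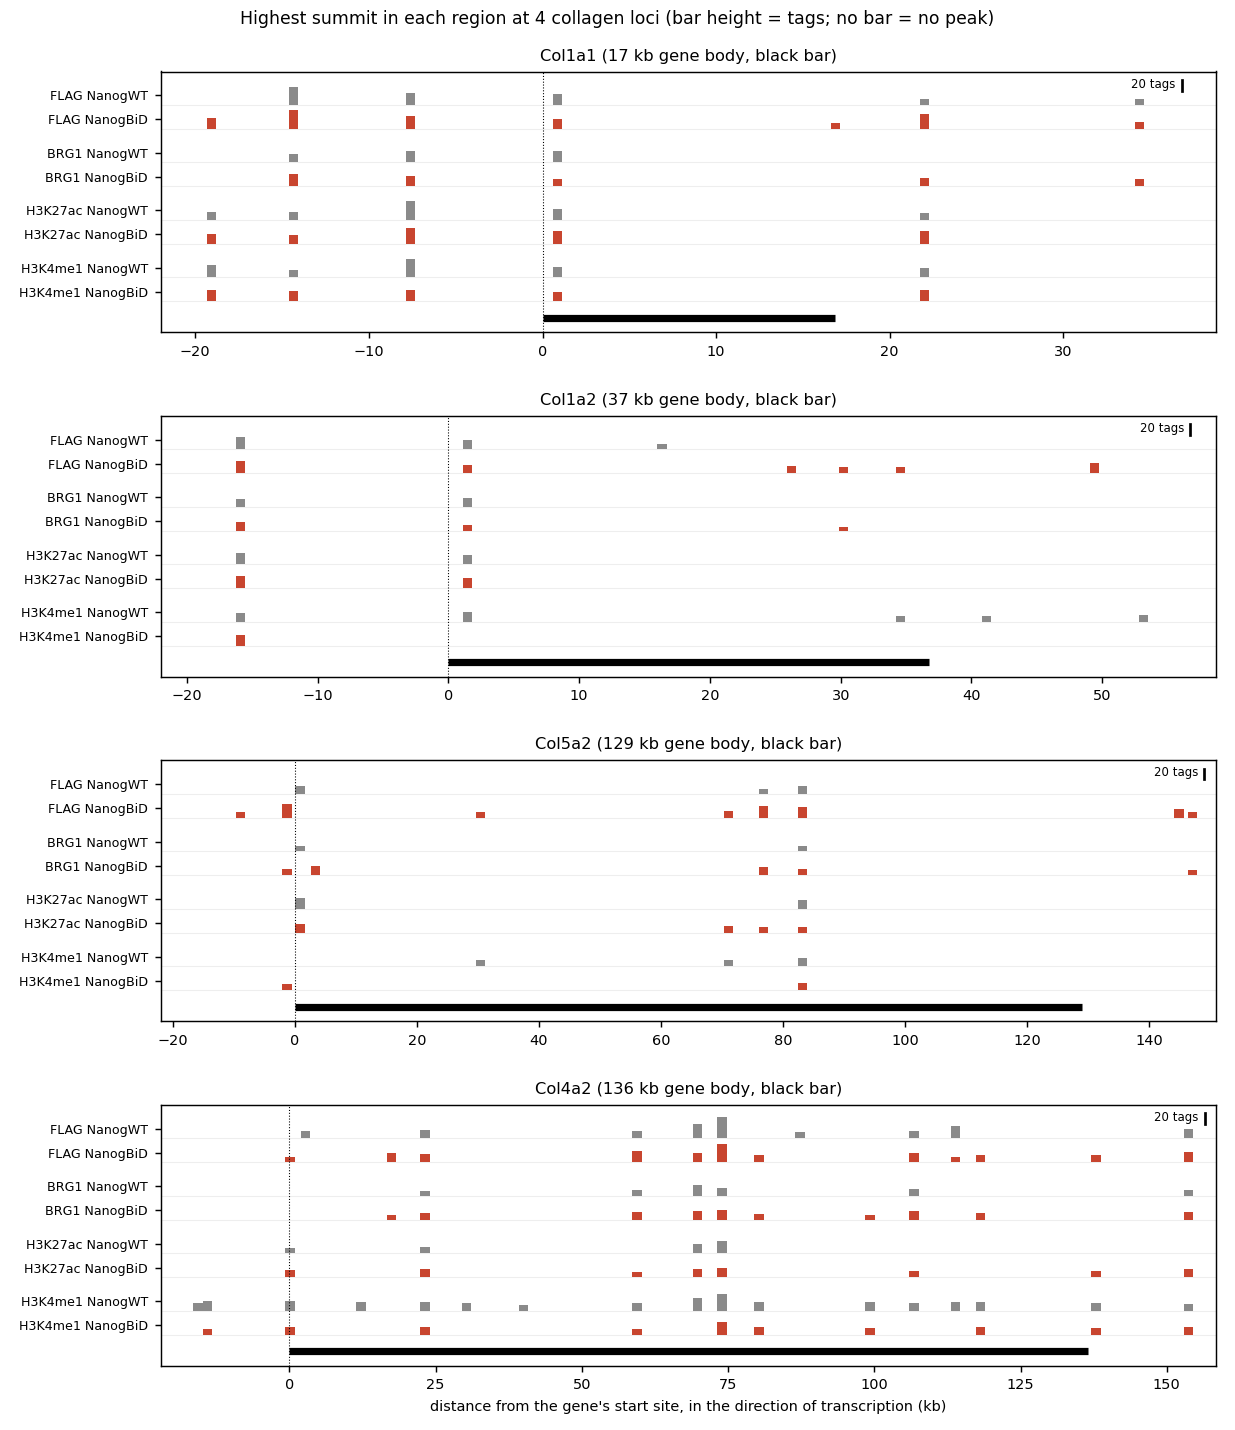
Height of the highest summit (bars, in tags, scale bar 20 tags) in each region at Col1a1, Col1a2, Col5a2 and Col4a2, for the 8 peak lists (rows, NanogWT grey, NanogBiD red), against the distance of the middle of the region from the gene's start site in kb. No bar means that no peak was called; at Col1a2 the H3K4me1 row of NanogBiD holds only the upstream region, and at Col4a2 the BRG1 row of NanogBiD holds 10 bars against 6 in NanogWT.

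The type IV collagens build the network of basement membranes, and all 6 had more FLAG peaks and more BRG1 peaks in NanogBiD, against 50.2% and 53.2% of protein-coding genes, most of which are shorter. Their genes lie head to head, so that Col4a1 and Col4a2, Col4a3 and Col4a4, and Col4a5 and Col4a6 share a promoter region, and a peak in a shared stretch counts for both genes in the values per gene but once in the totals. Col4a1 had 4 and 8 FLAG peaks, 1 and 5 BRG1 peaks, 3 and 5 peaks of H3K27ac, and 11 and 7 of H3K4me1. Col4a2 had 9 and 12 FLAG peaks, 6 and 10 BRG1 peaks, 4 and 8 peaks of H3K27ac, and 17 and 10 of H3K4me1. Col4a4 had 11 and 12 FLAG peaks, 4 and 10 BRG1 peaks, 2 and 5 peaks of H3K27ac, and 11 and 8 of H3K4me1. In these genes, whose chains are the common pair of basement membranes (Col4a1 and Col4a2) and a chain of the kidney filter (Col4a4), BRG1 and H3K27ac had more peaks and H3K4me1 fewer in the fusion arm.

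The BRG1 peaks of Col4a1, Col4a2, Col4a3 and Col4a4 all lay away from their promoters, in both arms. The start region that Col4a1 and Col4a2 share (chr8:11311560-11314354) had no BRG1 peak in either arm, a FLAG peak of 10 tags in NanogBiD alone, H3K27ac summits of 9 and 13 tags and H3K4me1 summits of 18 and 15 tags. In Col4a1, 54.6 kb from the start site, a region had FLAG summits of 22 and 30 tags in NanogWT and NanogBiD, with BRG1 and H3K27ac peaks of 20 and 14 tags in NanogBiD alone. In Col4a4, 133 kb from the start site, FLAG summits of 25 and 49 tags stood beside BRG1 summits of 9 and 32 tags and an H3K27ac peak of 21 tags in NanogBiD alone. Both are regions that NANOG occupied in both arms.

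Col4a5 and Col4a6, on the X chromosome, had FLAG peaks in both arms and BRG1 peaks in NanogBiD alone. Col4a6, a chain of smooth muscle basement membranes, had 5 and 6 FLAG peaks, 0 and 4 BRG1 peaks, 0 and 1 H3K27ac peaks, and no H3K4me1 peak. Its partner Col4a5 had 3 and 4 FLAG peaks, 0 and 3 BRG1 peaks and no peak of either histone mark. The BRG1 summits at Col4a6 reached 20 tags, and those at Col4a5 reached 9 tags. The H3K4me1 lists held 617 and 496 peaks on the X chromosome in all, fewer than the 1190 and 1612 of FLAG. Col4a3, the third chain of the kidney filter, had 4 and 6 FLAG peaks, 1 and 3 BRG1 peaks, 1 and 1 peaks of H3K27ac, and 5 and 3 of H3K4me1.

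Among the remaining collagens, a rule took the genes with the largest difference between arms in the sum of FLAG and BRG1 peaks, which beside 4 of the type IV genes gave Col8a1, Col14a1, Col16a1, Col19a1, Col25a1 and Col28a1. Col8a1, a short-chain collagen of vessel walls and of the membrane under the corneal endothelium, had 17 and 18 FLAG peaks, 9 and 15 BRG1 peaks, 11 and 15 peaks of H3K27ac, and 7 and 6 of H3K4me1. Its FLAG peaks were dense, with summits of up to 50 and 51 tags. Upstream of it, at -10.2 kb from the start site, FLAG summits of 50 and 51 tags went with BRG1 summits of 8 and 27 tags and with H3K27ac and H3K4me1 peaks of 16 and 14 tags in NanogBiD alone. Over its start site all 8 lists had a peak.

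Col25a1, a transmembrane collagen of neurons and developing muscle and the longest of the genes at 468 kb, had 23 and 22 FLAG peaks, 4 and 12 BRG1 peaks, 4 and 4 peaks of H3K27ac, and 23 and 16 of H3K4me1. Its number of FLAG peaks hardly differed between arms while its number of BRG1 peaks did. Part of these FLAG peaks, however, lay at places found in NanogWT alone or in NanogBiD alone. A region 243 kb into the gene (chr3:130374257-130375956) had FLAG summits of 28 and 61 tags, and BRG1, H3K27ac and H3K4me1 peaks of 34, 19 and 15 tags in NanogBiD alone. Col14a1, a fibril-associated collagen of tendon and skin, resembled it with 12 and 12 FLAG peaks, 4 and 10 BRG1 peaks, 5 and 4 peaks of H3K27ac, and 6 and 7 of H3K4me1. At the start site of Col14a1, in contrast, FLAG and BRG1 peaks of 9 and 12 tags were found in NanogWT alone.

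Col19a1, a minor collagen of basement membrane zones in muscle, had 11 and 17 FLAG peaks, 5 and 7 BRG1 peaks, 4 and 4 peaks of H3K27ac, and 15 and 11 of H3K4me1. Col16a1, a fibril-associated collagen, had 4 and 6 FLAG peaks, 4 and 7 BRG1 peaks, 7 and 4 peaks of H3K27ac, and 6 and 7 of H3K4me1. Col28a1, a collagen of peripheral nerve, had 7 and 8 FLAG peaks, 3 and 6 BRG1 peaks, 4 and 2 peaks of H3K27ac, and 7 and 4 of H3K4me1. The rule chose these genes for their difference in FLAG and BRG1, and none of these 3 had more H3K27ac peaks in NanogBiD. The other collagens outside the fibrillar group had absolute differences of up to 4 in the same sum, and Col6a1, which codes for a chain of beaded microfibrils, had 3 peaks in each of the 8 lists.

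Of the 9 fibril-associated collagens, 8 had a BRG1 peak, of which 5 had more and 1 had fewer in NanogBiD, against 53.2% and 12.7% of protein-coding genes, and of all 9, 3 had more and 3 had fewer FLAG peaks, against 50.2% and 17.6%. Of the 3 chains of type VI collagen, none had more BRG1 peaks and 2 had fewer. The 3 transmembrane collagens all had fewer H3K4me1 peaks in NanogBiD, as did 51.6% of protein-coding genes, with 21 and 12 at Col23a1 and 5 and 2 at Col17a1 beside those of Col25a1. Peaks in NanogWT and none in NanogBiD were found at Col9a2, with 2 and 0 FLAG peaks and 2 and 0 H3K27ac peaks, and at Col6a2, with 1 and 0 BRG1 peaks. The reverse was found at 1 collagen for FLAG, 3 for BRG1 and 1 for H3K27ac. How often either occurs over all protein-coding genes was not counted. Col10a1, the collagen of hypertrophic cartilage, had no BRG1 or H3K27ac peak in either arm.

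Peaks of the same target in both arms were next merged into regions, to ask whether the difference came from new places or from places held in both arms. At collagen loci 325 FLAG regions were found, of which 97 (29.8%, 25.1 to 35.0) were in NanogBiD only and 66 (20.3%, 16.3 to 25) in NanogWT only, against 33.7% and 15.8% of all FLAG regions of the genome. For BRG1, 98 of 210 regions (46.7%, 40.04 to 53.4) were in NanogBiD only and 34 (16.2%, 11.8 to 21.8) in NanogWT only, against 48.4% and 9.91%. For H3K27ac, 51 of 173 (29.5%, 23.2 to 36.7) were in NanogBiD only and 44 (25.4%, 19.5 to 32.4) in NanogWT only, against 29.1% and 14.6%. For H3K4me1, 52 of 341 (15.2%, 11.8 to 19.4) were in NanogBiD only and 134 (39.3%, 34.3 to 44.6) in NanogWT only, against 17.3% and 34.8%. Over all positions the NanogBiD-only share at collagen loci was therefore near that of the genome, while the NanogWT-only share lay above it for all 4 targets, with the interval above the genome for FLAG, BRG1 and H3K27ac. With a score of at least 100 the NanogWT-only share of BRG1 was 9.38% (5.01 to 16.9) against 7.14%, and with the 20000 peaks of highest score in each list it was 34.1% for BRG1 against 26.9% and 34.1% for FLAG against 26.6%.

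Split by position, the NanogBiD-only share of BRG1 and H3K4me1 lay above the genome at promoters and below it elsewhere. For BRG1 it was 36.7% (25.6 to 49.3) at promoters, against 23.7% in the genome, and 50.7% (42.7 to 58.6) elsewhere, against 59.3%. For H3K4me1 it was 19.8% (13.2 to 28.6) at promoters, against 12.4%, and 13.3% (9.60 to 18.2) elsewhere, against 19.3%. For FLAG it was 29.2% (19.9 to 40.5) at promoters, against 20.5%, which lies inside the interval, and 30.04% (24.7 to 36) elsewhere, against 37.9%. For H3K27ac, at 16.9% and 36%, both intervals included the genome's 15.2% and 37.1%.

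Between the gene groups, the NanogBiD-only share of BRG1 regions was 35.7% (24.5 to 48.8) of 56 regions at fibrillar loci and 50.6% (42.8 to 58.4) of 154 at the other loci. For FLAG the order was the opposite, with 34.6% (25.1 to 45.4) of 81 and 28.3% (23.0 to 34.2) of 244. In both cases the intervals of the gene groups overlap, and with a score of at least 100 both orders turned, to 65.4% and 60% for BRG1 and to 23.4% and 32.1% for FLAG. The NanogWT-only share of BRG1 regions was 21.4% (12.7 to 33.8) at fibrillar loci, from 12 regions, and 14.3% (9.63 to 20.7) at the others.

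**Figure D3:**
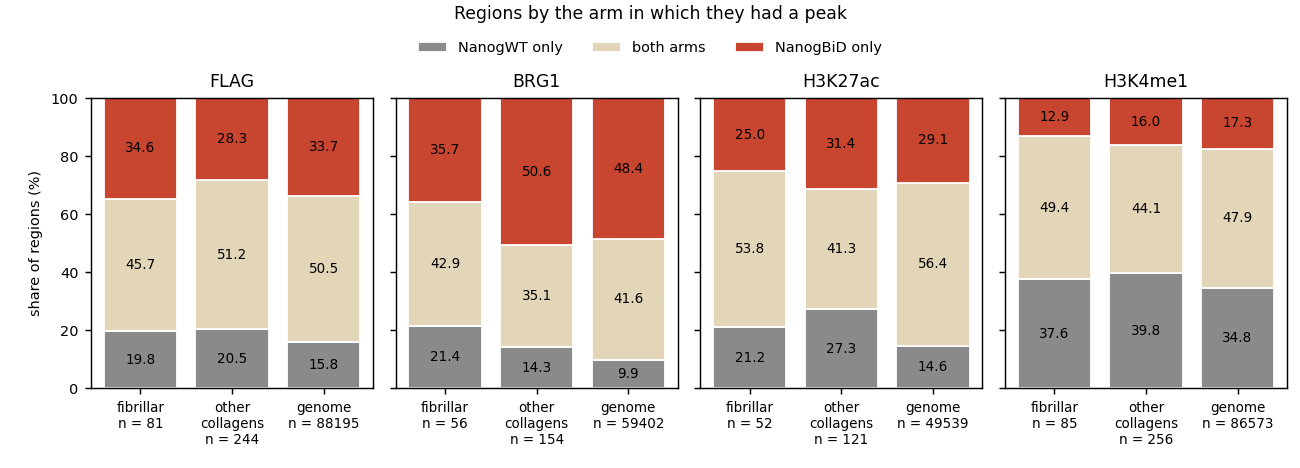
Share of regions (vertical axis, percent) with a peak in NanogWT only (grey), in both arms (beige) and in NanogBiD only (red), for the 4 targets at fibrillar collagen loci, at other collagen loci and over the genome, with the number of regions under each bar; 1 library per target and arm. The grey part is larger at both collagen groups than in the genome in each panel, for example 27.3% against 14.6% for H3K27ac at the other collagens and 21.4% against 9.91% for BRG1 at the fibrillar ones.

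The NanogWT-only regions of H3K27ac were found both at promoters and away from them. At promoters, of any gene, 13 of 59 collagen-locus regions (22%, 13.4 to 34.1) were in NanogWT only against 7.69% in the genome, and elsewhere 31 of 114 (27.2%, 19.9 to 36.0) against 18.6%. For FLAG the promoter share was 18.1% (10.9 to 28.5) against 11.7%, and the share elsewhere 20.95% (16.4 to 26.4) against 17.15%. Both intervals include the genome, as do both of H3K4me1. For BRG1 it was 13.3% (6.91 to 24.2) at promoters, an interval that includes the genome's 9.49%. Elsewhere the BRG1 share was 17.3% (12.1 to 24.2) against 10.1%. Collagens whose own promoter had H3K27ac in NanogWT alone were Col8a2, Col18a1 and Col28a1, and those with it in NanogBiD alone were Col6a3, Col15a1, Col24a1 and Col26a1, or 3 and 4 of 40, against 1.44% and 4.29% of protein-coding genes. With peaks of a score of at least 100 the NanogWT-only share of H3K27ac was 14.9% (8.51 to 24.7) against 13.5% in the genome. Its difference from the genome was thus present with the low-scoring peaks and small without them. Over 10 alternative settings the collagen share exceeded that of the genome in 10 for each target, and its interval lay wholly above the genome in 8 for H3K27ac, 7 for BRG1, 5 for FLAG and 4 for H3K4me1. These settings reuse the same peaks and are not independent of each other.

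**Figure D4:**
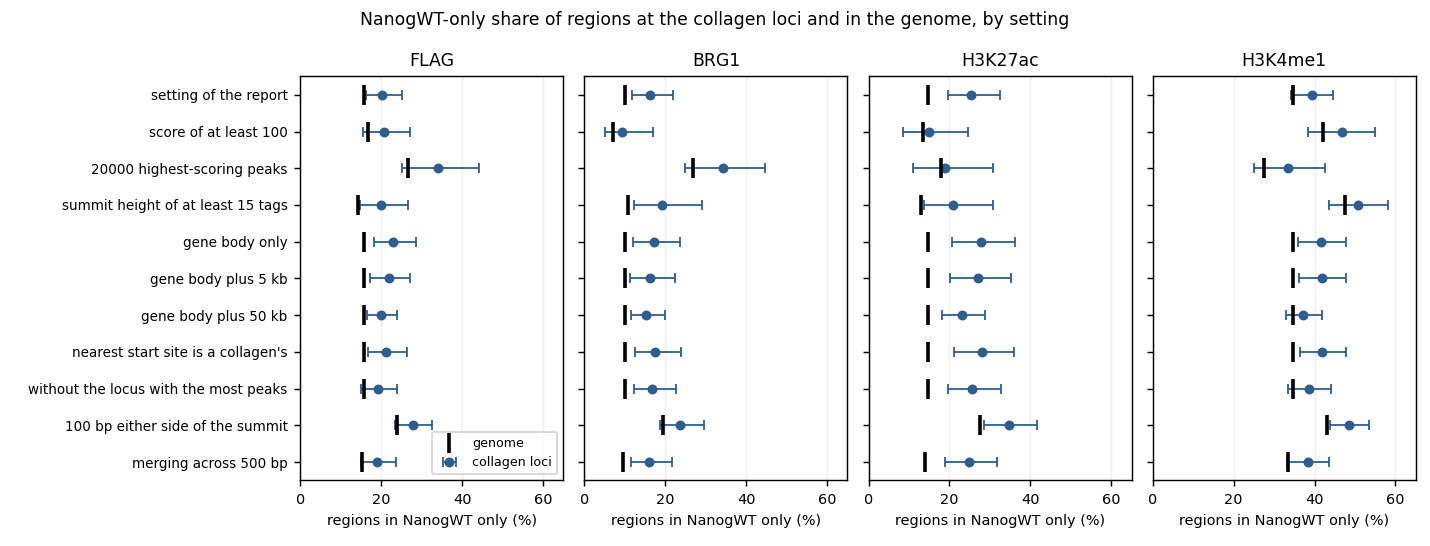
Share of regions found in NanogWT only (horizontal axis, percent) at collagen loci (blue points with 95% Wilson intervals, counting error only) and over the genome (black bars) for each target, under the setting of the report and 10 alternatives (rows). The blue points lie to the right of the black bars in each row, and at a score of at least 100 the H3K27ac values are 14.9% and 13.5%.

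At regions held in both arms, summit heights differed little. The median change in height from NanogWT to NanogBiD, on the log2 scale, was 0.09 (0 to 0.17) over 162 FLAG regions of collagen loci, 0.20 (0 to 0.32) over 78 BRG1 regions, 0 (-0.10 to 0.18) over 78 H3K27ac regions, and -0.21 (-0.26 to -0.14) over 155 H3K4me1 regions. Over all shared regions of the genome these medians were 0.15, 0.14, 0.08 and -0.18. BRG1 was higher at 47 and lower at 27 of the 78 collagen regions, or 60.3% and 34.6%, against 57.5% and 33.6% in the genome. H3K4me1 was higher at 28 and lower at 113 of 155, or 18.1% and 72.9%, against 23.8% and 66.2%. Heights are not scaled to depth, so a change in height is read only against the genome.

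FLAG regions were then asked for the other targets in the same arm. At collagen loci 42.1% (35.9 to 48.6) of FLAG regions had a BRG1 peak in NanogWT and 61.0% (54.9 to 66.7) in NanogBiD, against 44.1% and 64.8% in the genome. At fibrillar loci the share was 56.6% (43.3 to 69.0) in NanogWT and 58.5% (46.3 to 69.6) in NanogBiD, and at the other loci it was 37.7% (30.9 to 45.1) and 61.9% (54.9 to 68.4). The intervals of the arms did not overlap at the other collagens, from 175 and 194 FLAG regions. At fibrillar collagens they overlapped, from 53 and 65 regions, which give wider intervals. Whether the gene groups differ in this was not tested. The share with H3K27ac was 41.7% (35.5 to 48.1) and 42.5% (36.6 to 48.6) over all collagens, against 48.9% and 48.3% in the genome, and the share with H3K4me1 was 63.6% and 47.5%, against 64.3% and 49.4%.

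**Figure D5:**
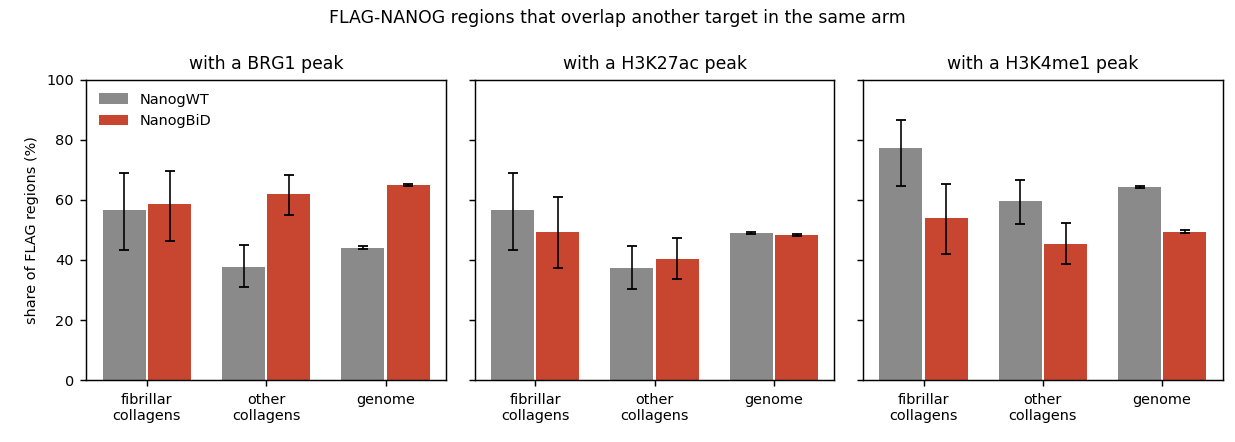
Share of FLAG regions (vertical axis, percent) that overlap a BRG1, H3K27ac or H3K4me1 peak of the same arm at fibrillar collagen loci, other collagen loci and in the genome (NanogWT grey, NanogBiD red; bars from 0, whiskers are 95% Wilson intervals, counting error only). With BRG1, the fibrillar bars stand at 56.6% and 58.5% and those of the other collagens at 37.7% and 61.9%.

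Merging the FLAG and BRG1 lists of both arms gave 348 regions at collagen loci, 89 at fibrillar and 259 at other loci. In 73 (21%, 17.0 to 25.6) FLAG and BRG1 were present in both arms, against 23.7% in the genome. In 48 (13.8%, 10.6 to 17.8) FLAG was present in both arms and BRG1 in NanogBiD only, against 15.2%, and in 37 (10.6%, 7.81 to 14.3) both were in NanogBiD only, against 11.1%. Both in NanogWT only were 10 regions (2.87%, 1.57 to 5.21), against 1.55%. H3K27ac was found in part of these places. Of the 48 regions with BRG1 in NanogBiD only, 13 had H3K27ac in NanogBiD only, 5 in both arms and 6 in NanogWT only. The NanogBiD-only share of H3K27ac in this class was 27.1% (16.6 to 41), against 31.8% in the genome, the share in both arms 10.4% (4.53 to 22.2), against 20.9%, and the NanogWT-only share 12.5% (5.86 to 24.7), against 3.93%. Among the 37 regions, 8 had H3K27ac in NanogBiD only (21.6%, against 22.8% in the genome), 1 in both arms and 1 in NanogWT only.

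Most of the 348 regions lay in introns (222), with 80 at promoters, 35 between genes and 11 in exons. For 295 of them (84.8%) the nearest start site of a protein-coding gene was that of a collagen. Over all 348 the median distance to a collagen start site was 18.15 kb. Of the 97 of these regions with BRG1 in NanogBiD only, 22.7% were at promoters, compared with 38.5% of the 78 with BRG1 in both arms. Over all BRG1 regions of the genome these shares were 14.9% and 48.8%, so the contrast was wider there. Regions at fibrillar loci were at promoters more often (34.8%) than those at the other loci (18.9%), whose genes are longer.

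A rule also named 3 regions where only NanogBiD had FLAG and BRG1, and 3 where only NanogWT had both, ranked by whichever of the FLAG and BRG1 summits was smaller. The first 3 lay at Col16a1 (chr4:130049727-130051227), with FLAG and BRG1 summits of 23 and 20 tags, in an intron of Col25a1 (chr3:130310400-130311644), with 31 and 18 tags, and in an intron of Col8a1 (chr16:57676714-57678501), with 30 and 18 tags. The Col8a1 region had neither histone mark in either arm, the Col25a1 region had H3K27ac summits of 10 and 18 tags, and the Col16a1 region had H3K27ac of 24 tags in NanogWT alone. Close to the Col25a1 region, less than 0.5 kb away, a FLAG peak of 30 tags was found in NanogWT alone, with BRG1 summits of 10 and 15 tags. There the NANOG peaks of the arms thus lay next to each other, and BRG1 was present beside both. At Col16a1 another FLAG peak upstream of the start site was shared, at 27 and 25 tags. A region in the Col11a2 window, at the start site of H2-Ke6, had FLAG and BRG1 summits of 20 and 18 tags in NanogBiD only and so tied with the Col25a1 and Col8a1 regions in the smaller summit. The NanogWT-only regions lay in an exon of Col12a1 (chr9:79714257-79715757), with 15 and 14 tags, at the start site of Ring1 upstream of Col11a2, with 13 and 15 tags, and at the start site of Col5a2, with 14 and 10 tags, which regions in introns of Col4a4 (13 and 10 tags) and Col5a1 (10 and 11 tags) tied.

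The 101 bases centred on the highest FLAG summit are shown for 4 of these regions, because NANOG and BRG1 peaks were called there in 1 arm only. At Col25a1 this holds for the region itself, as NanogWT had both targets close by. Sequences are of the plus strand of GRCm38, and capitals mark the match to a motif.
Col16a1, NanogBiD only, chr4:130050651-130050751: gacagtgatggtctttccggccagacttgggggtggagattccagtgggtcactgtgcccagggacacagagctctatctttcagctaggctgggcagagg
Col25a1, NanogBiD only, chr3:130310972-130311072: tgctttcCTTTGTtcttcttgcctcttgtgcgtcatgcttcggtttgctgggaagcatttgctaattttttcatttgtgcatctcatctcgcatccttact
Col8a1, NanogBiD only, chr16:57677446-57677546: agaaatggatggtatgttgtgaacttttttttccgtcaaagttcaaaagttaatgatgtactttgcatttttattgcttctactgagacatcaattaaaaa
Col12a1, NanogWT only, chr9:79714906-79715006: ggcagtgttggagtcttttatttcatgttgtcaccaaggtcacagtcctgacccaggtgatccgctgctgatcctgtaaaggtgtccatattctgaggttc
Of the 5 motifs searched, the Col25a1 window held a SOX match, CTTTGT, which is the reverse complement of ACAANG with N read as A. The other 3 windows held no match to any of the 5.

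The same 5 motifs were counted on both strands at the FLAG summits of all 325 collagen regions, within 50 bp either side. TGANTCA, the site of AP-1 factors that are abundant in fibroblasts, was found in 30 regions (9.23%, 6.54 to 12.9), against 9.80% of 88195 FLAG regions of the genome. ACAANG, bound by SOX factors, was found in 21.2% against 21.3%, GGAATG, bound by TEAD factors, in 7.08% against 7.02%, TGTGGTT, bound by RUNX factors, in 3.69% against 3.42%, and ATGCAAAT, the octamer bound by OCT4, in 1.85% against 2.31%. The collagen regions thus held these letters about as often as FLAG regions at large. At fibrillar loci AP-1 matches were found at 4 of 81 regions (4.94%, 1.94 to 12.0). In NanogWT-only collagen regions 2 of 66 held AP-1 (3.03%, 0.835 to 10.4) and 2 held the octamer, and in NanogBiD-only regions 10 of 97 held AP-1 (10.3%, 5.70 to 17.9), 26 held SOX (26.8%, 19 to 36.4) and 0 held the octamer, which allows a share of up to 3.81%. Over the genome 6.31% of NanogWT-only and 10.6% of NanogBiD-only regions held AP-1, 23.6% of NanogBiD-only regions held SOX, and the octamer was found in 1.30% of NanogWT-only and 2.89% of NanogBiD-only regions.

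Genes that act on collagens were counted in the same way. The 26 enzymes and chaperones that modify, fold, trim and cross-link collagen had 58 and 70 BRG1 peaks, a ratio of 1.21 (0.840 to 1.74), 87 and 95 FLAG peaks, 63 and 73 peaks of H3K27ac, and 117 and 101 of H3K4me1. BRG1 peaks were more in NanogBiD for 12 of them and fewer for 5, against 53.2% and 12.7% of protein-coding genes, and the ratio of whole BRG1 lists was 1.74. Serpinh1, the collagen chaperone HSP47, had 4 and 5 FLAG peaks, 3 and 4 BRG1 peaks, 5 and 4 peaks of H3K27ac, and 5 and 4 of H3K4me1, and Lox, which cross-links fibrils, had 1 and 3 BRG1 peaks beside 3 and 3 FLAG peaks. Of the 7 collagen receptors, 6 had more BRG1 peaks in NanogBiD and 1 had fewer, against 53.2% and 12.7% of protein-coding genes. They had 28 and 34 in all, a ratio of 1.21 (0.715 to 2.08), with 5 and 8 at the integrin gene Itga1 and 5 and 4 at Ddr1. The 6 fibril-binding proteoglycans had 5 and 12 BRG1 peaks, a ratio of 2.4 (0.787 to 8.70), and 0 and 4 of them were at Lum. For receptors and proteoglycans alike, the interval includes equal numbers and the ratio of whole BRG1 lists.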

How the data were processed

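CUT&Tag was performed by the authors on MEFs on day 5 of reprogramming, with 1 deposited library per target and arm. Per the study's methods and the submitters' processing notes, reads were trimmed (Trim Galore 0.6.4), aligned to mm10 (Bowtie2 2.4.5, SAMtools 1.16.1), replicates were merged, and peaks were called with MACS 1.4.2. The study states a general minimum of repeats for its experiments, but how many replicates each of these lists holds, and whether a control library entered the calling, is not given in the sources used here. The peak score deposited by the authors is −10 times the log10 of the peak caller's p-value, with 50 as the lowest score in each list. The summit signal deposited by the authors is the pileup of tags at the summit, not scaled to depth, so a deeper library can give more and higher peaks from the same cells.

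Peaks were assigned to collagen windows (gene body of GENCODE M21 plus 20 kb, overlap of at least 1 bp) and counted once in totals where windows overlap. Overlapping peaks of both arms were merged into regions. A promoter was 2 kb either side of any annotated start site. Ratios have exact binomial, shares Wilson and medians order-statistic 95% intervals, which cover counting error only. No test was run, as each group is 1 library. The genes named by rule were the 11 fibrillar collagens and the 10 other collagens with the largest absolute difference in FLAG plus BRG1 peaks. Ties went to the gene with more peaks over all lists, which put Col28a1 before Col4a3, Col4a5 and Col18a1. Further collagens were named outside this rule. The members, gene lists and rules were chosen with earlier results of these data known. Motifs were read at 50 bp either side of FLAG summits in the GRCm38 genome. Promoter sequences were found for 31 of the 40 genes. Python 3.11.15 with numpy 2.4.6, pandas 2.3.3, scipy 1.17.1 and matplotlib 3.10.9 was used, and the counting was checked on simulated peaks. Alternatives were other thresholds on score, height and list size, other flanks, nearest-gene assignment, summit windows, merging across gaps, and leaving out the locus with the most peaks. The share of regions in NanogWT only, and its alternatives, were added after seeing the data.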

Additional observations from a re-analysis of the deposited data

How the results depend on the processing

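Of 176 values recomputed under these alternatives, 151 stayed inside the counting interval of the reported value and 24 moved out of it. The remaining 1 was a ratio whose own interval excluded 1 and which then fell on the other side of 1. Counting also ratios whose interval included 1, 11 of 108 fell on the other side of 1, 8 of them with equal list lengths. Of 48 recomputed NanogWT-only shares, 14 moved out of their interval. Other flanks, nearest-gene assignment, merging across gaps and leaving out the locus with the most peaks (Col25a1, or Col24a1 among fibrillar genes) moved none of them out of its interval, although without Col24a1 the H3K27ac ratio at fibrillar loci was 0.944. When each list was limited to its 20000 peaks of highest score, the NanogBiD to NanogWT ratio of BRG1 peaks over all collagens turned to 0.933, that at fibrillar loci was 0.70 and that at other loci 1.05. The same setting gave FLAG ratios of 0.857 over all, 0.867 at fibrillar and 0.855 at other loci, and H3K4me1 ratios of 0.889 over all and 1.09 at fibrillar loci. It equalises list lengths, so that only the rank of peaks within a list counts. Peaks with a score of 100 or more gave BRG1 ratios of 2.35 over all and 2.56 at fibrillar loci, and an H3K4me1 ratio of 0.545 at other loci. With summits of at least 15 tags the H3K4me1 ratio was 0.537 over all and 0.463 at other loci. The NanogBiD-only share of FLAG regions was 23.4% (score) and 25% (list size) at fibrillar loci, and 22.5% (list size), 35.5% (height) and 36.4% (100 bp either side of the summit) at other loci. That of BRG1 regions was 65.4% (score) and 23.1% (list size) at fibrillar loci, and 60% (score), 32.2% (list size) and 59.3% (height) at other loci. With the score in place of the height, the median log2 change at shared regions was 0.34 for BRG1 and -0.13 for H3K4me1. The cause of these differences was not tested.

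No paired analysis was possible because every arm has only 1 merged library per target. Depth is unknown and heights are unscaled, so a difference in list length between arms cannot be told apart from one in depth or background. No list of MEFs without the factors was analysed here.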
